A study of Mus musculus with 12 samples.

Results

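The genes described here are the ion channels and water channels (aquaporins) of mouse urothelium, the epithelium that lines the bladder and urinary tract. They were taken by gene symbol: potassium channels and their subunits (Kcn), voltage-gated and epithelial sodium channels (Scn), transient receptor potential (TRP) cation channels of the A, C, M and V families, Piezo channels and aquaporins (Aqp). The rule matched 146 symbols, 1 of which it left out, and the 145 that remained are 145 of the 23337 symbols in the tables. The rule reads symbols alone and uses no expression values, but it was chosen with earlier results of these data known. The symbol pattern also took 2 genes that encode no channel: Kcnq1ot1, a noncoding RNA made antisense to the potassium channel gene Kcnq1, and Trpc4ap, which encodes a protein that binds a TRP channel. No symbol began with Piezo.

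RNA came from peeled urothelium of mice that were Stag2 wild type (WT) or Stag2 knockout (KO), with 3 animals in each of 4 groups, sampled 1 week or 1 month after the start of TMX, read here as tamoxifen. Both genotypes were given TMX in the food for a week to induce the deletion, so all groups share that treatment. Stag2 encodes part of cohesin, a ring-shaped complex that holds sister chromatids and folds DNA, and the study's title places it with the DREAM complex in keeping urothelial cells out of division. The labels used here do not give the Cre driver, the deleted exons, the animals' age or their sex. The 6 libraries of 1 week were batch 1; at 1 month replicates 1 and 2 of each genotype were batch 2 and replicate 3 of each was batch 3, so time and batch cannot be told apart and time was not tested.

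Urothelium is a tight barrier whose surface cells face urine. Epithelial sodium channels (ENaC) in its apical membrane take up sodium, potassium channels set the membrane voltage, aquaporins pass water and in some cases glycerol, and TRP and Piezo channels respond to stretch, heat and chemicals. Many other members are known from nerve and muscle, where voltage-gated channels carry the action potential, and from blood vessels, where potassium channels set vessel tone.

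The libraries held 5580961 to 9497088 counts each. Levels are given as TMM-scaled CPM, each count relative to its library's total after that total was scaled for composition (trimmed mean of M values), with each time scaled on its own. These libraries read 1 tag near the 3′ end of a transcript, so a CPM is not divided by gene length when genes are compared. A floor of 3 counts was 0.316 to 0.538 CPM, depending on the library. KO replicate 3 of 1 week stood apart, with a Spearman correlation of 0.726 to 0.829 with the other libraries of its time, where other pairs reached 0.986. The 3 KO libraries of 1 week held 6392 to 10406 counts of Xist, the RNA of an inactive X chromosome, and at most 4 counts of Y-linked genes, while the WT libraries of that time held at most 13 counts of Xist and 1360 to 2140 of Y-linked genes. Genotype and these sex-linked transcripts cannot be told apart at 1 week; at 1 month KO replicate 3 alone held Xist, with 7764 counts. Stag2 itself stood at 120.2, 108.1 and 154 CPM in WT and 76.1, 61 and 69.1 in KO at 1 week (log2 fold change -0.89, edgeR adjusted p = 0.198). At 1 month Stag2 stood at 59.1, 61.8 and 46.2 CPM in WT and 37.9, 36.4 and 19.2 in KO (log2 fold change -0.88, edgeR adjusted p = 0.0507), and 3′ tags outside the deleted part would not check the deletion.

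Most of the family was silent or near silent in this tissue. Of the 145 members, 11 had no count in any of the 12 libraries and 49 never passed 3 counts in a library. The 11 include Trpv1 and Trpv3, heat-gated channels of sensory nerve and skin, and Aqp2 and Aqp6, aquaporins of the kidney collecting duct. The filter on low counts let 48 members be tested at 1 week and 45 at 1 month, 53 at either time and 40 at both, and 92 were tested at neither. A mean of at least 5 CPM over the 12 libraries was reached by 23 members.

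**Figure D1:**
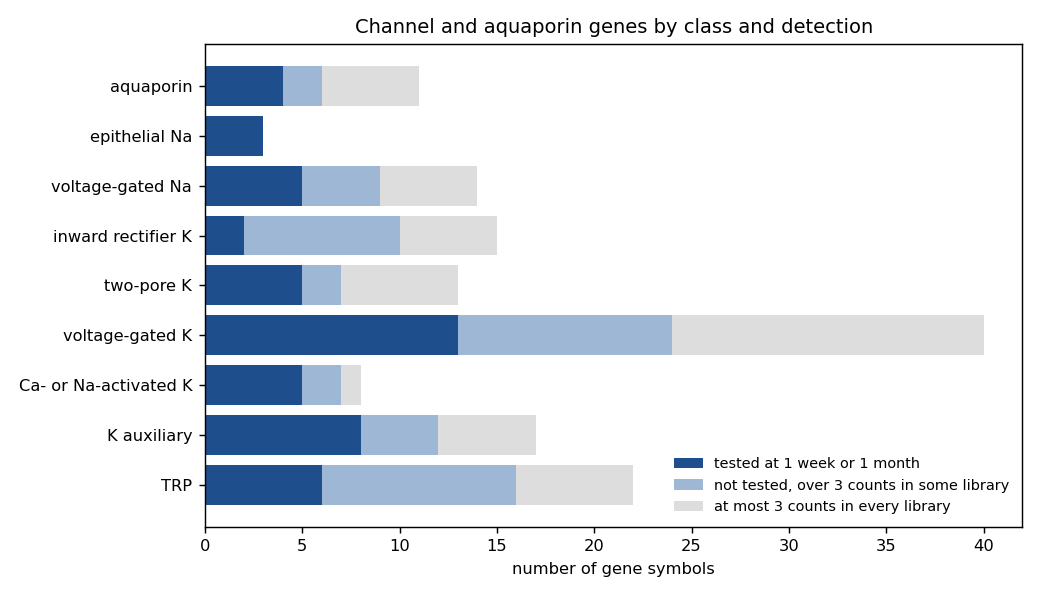
Number of gene symbols in each channel class (horizontal axis), split by colour into members tested at 1 week or 1 month, members with more than 3 counts in some library but not tested, and members with at most 3 counts in every library. Of 40 voltage-gated potassium channel genes 13 were tested, of 22 TRP genes 6, and of 3 epithelial sodium channel genes all 3.

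The summed level of all members was 1477 to 1855 CPM in WT and 1651 to 2274 in KO at 1 week, and 1581 to 2536 in WT and 1659 to 2368 in KO at 1 month, so the groups overlapped at both times. Only Kcnq1ot1, Aqp1, Kcnk1 and Aqp3 averaged at least 100 CPM, and they made up 67.6% of the sum. After these came Trpm7, Kcnn4, Trpv4, Kcnj15, Trpm4 and Kcnk2. The highest members were thus 1 noncoding RNA, 2 aquaporins, a tandem-pore leak channel and then TRP, calcium-activated, inward rectifier and stretch-gated tandem-pore channels, while no gene of the largest class, the voltage-gated potassium channels, was among these 10.

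**Figure D2:**
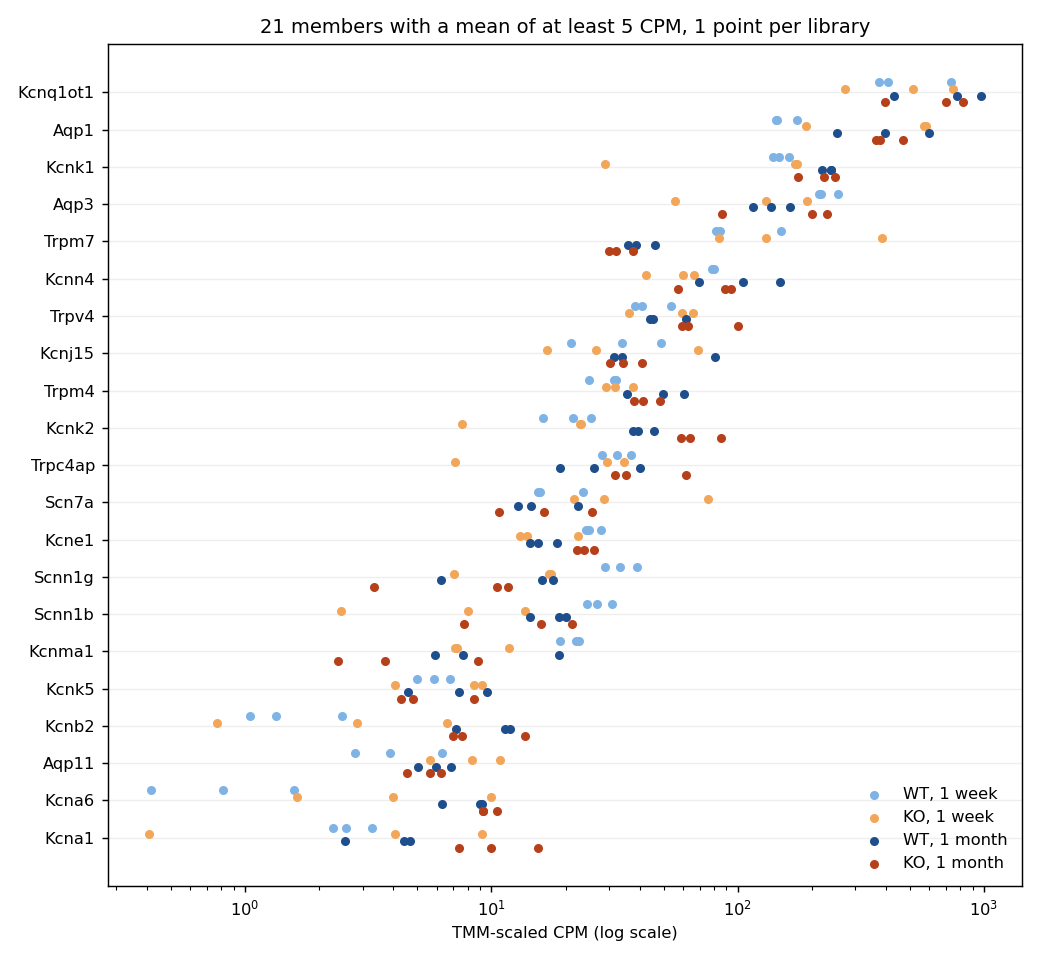
TMM-scaled CPM (log axis) of 21 of the 23 members with a mean of at least 5, with 1 point for each library and a colour for each of the 4 groups. The points of most genes from different groups are mixed along the axis, and Kcnq1ot1, Aqp1, Kcnk1 and Aqp3 stand highest.

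Promoter sequences are shown for the gene that passed the test at 1 month, for both highly expressed aquaporins, and for the pair of neighbouring ENaC genes whose levels were low in every KO library at 1 week. Each is the 250 bases before the RefSeq start (GRCm38.p6), read 5′ to 3′ on the gene's strand, and none of these bases lies in an annotated GENCODE exon. Capitals mark matches on either strand to the letters GGGCGG, known as a GC box. In the Aqp3 promoter they also mark a match to the letters TATAAA, known as the core promoter box of that name.
Kcnj8, chr6:142571615-142571864, minus strand: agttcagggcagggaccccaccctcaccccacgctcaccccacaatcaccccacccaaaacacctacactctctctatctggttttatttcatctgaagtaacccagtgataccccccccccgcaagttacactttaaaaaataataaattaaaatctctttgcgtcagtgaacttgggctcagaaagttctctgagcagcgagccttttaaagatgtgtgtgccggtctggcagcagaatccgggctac
Aqp1, chr6:55336049-55336298, plus strand: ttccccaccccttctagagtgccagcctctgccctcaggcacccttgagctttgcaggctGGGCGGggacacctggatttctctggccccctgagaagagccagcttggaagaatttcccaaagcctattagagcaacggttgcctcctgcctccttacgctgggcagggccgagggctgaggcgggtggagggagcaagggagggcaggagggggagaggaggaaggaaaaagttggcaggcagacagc
Aqp3, chr4:41098184-41098433, minus strand: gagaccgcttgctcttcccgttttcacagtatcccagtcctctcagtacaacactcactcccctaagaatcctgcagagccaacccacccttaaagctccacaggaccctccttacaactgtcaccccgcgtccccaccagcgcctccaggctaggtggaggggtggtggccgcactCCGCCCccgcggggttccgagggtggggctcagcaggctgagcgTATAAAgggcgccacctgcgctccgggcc
Scnn1g, chr7:121734229-121734478, plus strand: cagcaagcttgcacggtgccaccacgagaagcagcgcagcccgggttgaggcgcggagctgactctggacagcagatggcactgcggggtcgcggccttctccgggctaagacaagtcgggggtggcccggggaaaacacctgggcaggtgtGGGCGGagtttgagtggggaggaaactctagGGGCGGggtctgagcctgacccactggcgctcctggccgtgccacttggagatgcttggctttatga
Scnn1b, chr7:121864788-121865037, plus strand: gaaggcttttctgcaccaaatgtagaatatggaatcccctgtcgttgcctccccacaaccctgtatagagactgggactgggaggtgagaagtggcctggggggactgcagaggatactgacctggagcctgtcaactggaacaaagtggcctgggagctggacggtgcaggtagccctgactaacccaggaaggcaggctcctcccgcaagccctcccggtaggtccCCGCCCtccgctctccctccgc
Both strands were searched for 6 motifs. The letters TTTGAA stand for a cell cycle homology element, and TTTNGCGC for an E2F-type site, the kinds of element at which DREAM is known to act. The letters TGANTCA stand for the site of AP-1 factors. The letters AGATAA stand for a site of the zinc-finger factors that are common in epithelia. These 4 motifs had no match in the 5 windows, and the remaining ones were the pair marked above. The Scnn1g window held the GC box in 2 places, starting 98 and 67 bases before the start site, and the Scnn1b window held 1 match, 22 bases before it. In Aqp3 the core promoter box lay 29 bases before the start. The GC box was present in 40.2% of the 112 members that had a promoter in the table and in 32.9% of all 27025 promoters. The core promoter box was present in 6.25% and 13%, the cell cycle element in 9.82% and 16.3%, the E2F-type site in 1.79% and 1.15%, the AP-1 site in 3.57% and 6.87% and the zinc-finger factor site in 5.36% and 10.3%. Such a match is a description of letters and not a binding site.

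At 1 month 1 member passed the test between genotypes, Kcnj8, which rose in KO. Kcnj8 encodes the pore of the ATP-sensitive potassium channel of vascular smooth muscle and pericytes. It lies on chromosome 6 from 142564837 to 142571614 on the minus strand (GRCm38). Its level at 1 month was 1.38, 1.08 and 5.34 CPM in WT and 7.13, 9.41 and 12.3 CPM in KO, from 7, 6 and 35 counts and 58, 59 and 81 counts. All 3 KO libraries lay above all 3 WT libraries, and the WT library of batch 3 stood above the other two. The log2 fold change was 2.08 (SE 0.43, edgeR adjusted p = 0.0302), with a log2 difference of 2.47 within batch 2 and of 1.16 within batch 3. The call was lost without the batch covariate (edgeR adjusted p = 0.52) and on leaving out WT replicate 1 or 2 or KO replicate 1 or 2 (edgeR adjusted p = 0.0704 to 0.152). It held without KO replicate 3 (edgeR adjusted p = 0.00287). In that fit the batch term takes up WT replicate 3, the only batch 3 library left, so the comparison rests on batch 2. Over all 12139 genes tested at 1 month, 2.22% passed, against 1 of 45 members, so the members' share is close to that of all genes. In bulk RNA, more cells of a type and more RNA per cell cannot be told apart.

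At 1 week Kcnj8 stood at 2.31, 1.4 and 1.35 CPM in WT and 3.37, 2.75 and 5.3 CPM in KO. These groups did not overlap either, but the log2 fold change of 1.16 (SE 0.50) did not pass (edgeR adjusted p = 0.321). Abcc9, which encodes the sulfonylurea receptor that pairs with the Kcnj8 pore and was looked up after the Kcnj8 values were seen, stood at 9.95, 6.88 and 7.35 CPM in WT and 14.4, 15.3 and 30 in KO at 1 week (log2 fold change 1.30, edgeR adjusted p = 0.207). At 1 month Abcc9 overlapped between genotypes, at 5.7, 10.6 and 17.1 CPM in WT and 9.72, 18.5 and 14.4 in KO. Pdgfrb, the growth factor receptor that marks pericytes, also passed at 1 month, with 7.46, 9.52 and 23.5 CPM in WT and 21.8, 24.1 and 49.6 in KO (log2 fold change 1.30, edgeR adjusted p = 0.0218). Rgs5, another pericyte marker, stood at 57.2, 175.9 and 125.7 CPM in WT and 59.2, 118.6 and 63.8 in KO. Of the 8 endothelial and pericyte markers, 7 at 1 week and 6 at 1 month had a positive log2 fold change and 1 passed, at 1 month. Their summed level was 319.9 to 428 CPM in WT and 442.9 to 771.3 in KO at 1 week, and 217.2 to 380.5 in WT and 287.2 to 484.6 in KO at 1 month. The part of these markers in the Kcnj8 result was not tested.

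At 1 month the levels of 7 of the 45 tested members did not overlap between genotypes, all with KO higher: Kcnj8, Kcna1, Kcna6, Kcne1, Kcne4, Kcnip3 and Kcnk2. They were 15.6% of the members tested, against 5.68% of all genes. No tested member was lower without overlap, against 7.61% of all genes. Members too low to test were left out of these counts, among them Kcnh1, lower in KO without overlap, and Kcnj10, higher. Without KO replicate 3, 9 members were higher and 3 lower without overlap, 20% and 6.67% of those tested, against 9.04% and 11% of all genes. An unadjusted p under 0.05 was found for 10 members, 8 higher and 2 lower, against 21.5% of all genes, and DESeq2 called 3, Kcnj8, Kcna1 and Kcnk2, all higher, against 6.43%. The median log2 fold change was 0.02 over the 45 members and -0.01 over all genes.

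Kcna1 encodes a voltage-gated potassium channel of the shaker type, known from axons. It stood at 1 month at 2.55, 4.67 and 4.42 CPM in WT and 7.38, 15.5 and 10 in KO. The log2 fold change was 1.48 (SE 0.40) and did not pass (edgeR adjusted p = 0.0681). At 1 week its KO libraries were spread widely, at 9.17, 4.08 and 0.408 CPM around WT levels of 3.28, 2.56 and 2.28. Kcna6, a shaker-type gene in the same cluster on chromosome 6 (Kcna5, Kcna1 and Kcna6 between 126532551 and 126740674), stood at 1 month at 6.28, 9.16 and 9 CPM in WT and 9.22, 10.5 and 9.25 in KO. That separation is narrow, with a log2 fold change of 0.24 (edgeR adjusted p = 0.675). At 1 week Kcna6 stood at 1.58, 0.816 and 0.414 CPM in WT and 9.98, 3.97 and 1.63 in KO (log2 fold change 2.48, SE 0.80, edgeR adjusted p = 0.218).

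Kcnk2 encodes a tandem-pore potassium channel that opens on membrane stretch. Its level at 1 month was 45.6, 39.3 and 37.7 CPM in WT and 85.7, 58.8 and 64.1 in KO (log2 fold change 0.77, SE 0.22, edgeR adjusted p = 0.079). The log2 difference was 0.74 within batch 2 and 0.76 within batch 3. At 1 week the genotypes overlapped, with 16.1, 21.4 and 25.4 CPM in WT and 23.1, 7.61 and 22.8 in KO. Kcnk1, the most abundant tandem-pore channel gene, stood at 162, 139 and 148 CPM in WT and 171, 174 and 28.9 in KO at 1 week, where only KO replicate 3 was low. At 1 month it lay between 219 and 239 CPM in WT and between 176 and 247 in KO. Kcnk5, a tandem-pore channel that senses alkaline pH, ranged from 4.08 to 9.62 CPM over the 12 libraries.

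The auxiliary subunits Kcne1 and Kcne4 are small membrane proteins that alter the gating of voltage-gated potassium channels. Kcne4 stood at 1 month at 1.57, 2.52 and 6.56 CPM in WT and 8.36, 7.01 and 9.25 in KO (log2 fold change 1.36, SE 0.41, edgeR adjusted p = 0.0946). Its levels at 1 week were 1.21, 1.98 and 0.725 CPM in WT and 2.16, 3.53 and 6.32 in KO (log2 fold change 1.59, SE 0.61, edgeR adjusted p = 0.283), so KO was above WT without overlap at both times. As for Kcnj8, WT replicate 3 of 1 month, of batch 3, was the highest WT library of Kcne4. Kcnip3 encodes a calcium-binding protein that associates with A-type potassium channels; its alias DREAM is unrelated to the DREAM complex. Kcnip3 stood at 1 month at 1.57, 0.359 and 1.68 CPM in WT and 1.84, 2.87 and 3.64 in KO, from at most 24 counts in a library (log2 fold change 1.21, edgeR adjusted p = 0.238).

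Kcne1 separated the genotypes in opposite directions. At 1 week it stood at 24.9, 27.9 and 24.2 CPM in WT and 22.5, 13.9 and 13.1 in KO, with every KO library lower (log2 fold change -0.64, SE 0.33, edgeR adjusted p = 0.396). At 1 month it stood at 14.3, 18.5 and 15.4 CPM in WT and 26.1, 22.3 and 23.8 in KO, with every KO library higher (log2 fold change 0.58, SE 0.24, edgeR adjusted p = 0.187). The difference between the effects was 1.24 on the log2 scale (SE 0.39) and did not pass (edgeR adjusted p = 0.151).

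At 1 week no member passed edgeR's test, where 8 of 12754 genes, 0.0627%, did; Xist and 4 Y-linked genes are among these 8. An unadjusted p under 0.05 was found for 13 of the 48 members, 9 higher and 4 lower, against 15.5% of all genes. DESeq2 called 6 members (Aqp1, Kcna6 and Kcns3 higher, Kcnk4, Kcnma1 and Scnn1b lower), against 7.5% of all genes. The median log2 fold change of the members was 0.35 and that of all genes 0.02, with 33 members positive and 15 negative. Positive changes made up 68.8% of the members tested and 51.5% of all genes. Among tested members, KO was higher without overlap for 8, 16.7% against 14.1% of all genes, and lower for 7, 14.6% against 12.5%. Leaving out KO replicate 3 gave 15 members higher and 8 lower without overlap, 31.2% and 16.7% against 20.8% and 17% of all genes, and 2 members called by edgeR, both higher, Aqp1 among them.

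Aqp1 encodes the water channel of capillary endothelium and of some epithelia. At 1 week it stood at 143.7, 174.7 and 143.8 CPM in WT and 572.8, 580.3 and 189.4 in KO, so 2 KO libraries stood far above WT and KO replicate 3 just above. The log2 fold change was 1.54 (SE 0.45, edgeR adjusted p = 0.185), and 1.86 without KO replicate 3 (edgeR adjusted p = 0.0122). At 1 month the genotypes overlapped at 395.9, 599.6 and 252.7 CPM in WT and 364.2, 470 and 378 in KO (log2 fold change 0.02, SE 0.26, edgeR adjusted p = 0.969), and the WT libraries of 1 month lay above those of 1 week, a step shared with batch. The difference between the genotype effects was -1.50 on the log2 scale (SE 0.56, edgeR adjusted p = 0.19), and -1.86 without KO replicate 3 of 1 week (edgeR adjusted p = 0.0241). Of the 8 endothelial and pericyte markers, 4 were higher in KO without overlap at 1 week (Pecam1, Cdh5, Vwf and Cspg4), and within KO these were highest in replicate 3, the KO library lowest in Aqp1. The other 4 (Kdr, Emcn, Rgs5 and Pdgfrb) overlapped between genotypes and within KO were lowest in replicate 3, as Aqp1 was. Pecam1, an adhesion protein of endothelium, stood at 74.3 to 81.1 CPM in WT and 132.4, 148.2 and 300.5 in KO, and Kdr, a growth factor receptor of endothelium, at 26.4 to 44.8 CPM in WT and 45.4, 65.2 and 22.8 in KO. None of the 8 passed at 1 week. Their part in the Aqp1 values was not tested.

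Aqp3 encodes an aquaglyceroporin of basal and intermediate epithelial cells. At 1 week it stood at 217.7, 255.7 and 213.1 CPM in WT and 130.5, 190.8 and 55.7 in KO, without overlap (log2 fold change -0.86, SE 0.44, edgeR adjusted p = 0.394). At 1 month it stood at 162.6, 136 and 114.9 CPM in WT and 231.2, 199.8 and 86.1 in KO, where KO of batch 2 was above WT and KO of batch 3 below (log2 fold change 0.22, edgeR adjusted p = 0.607). None of the 5 basal markers passed at 1 week, with 3 positive log2 fold changes and 1 marker, Trp63, lower without overlap, as Aqp3 was. Trp63, a transcription factor of basal cells, stood at 85.1, 76.7 and 77.7 CPM in WT and 48.5, 48.2 and 51.6 in KO (log2 fold change -0.69, edgeR adjusted p = 0.246). The basal keratin gene Krt5 overlapped at 1 week, at 593.7, 610.9 and 624.9 CPM in WT and 340.7, 715.5 and 469.7 in KO. Krt5 was the 1 basal marker without overlap at 1 month, at 111.4, 205.7 and 503.9 CPM in WT and 603, 615.4 and 671 in KO (edgeR adjusted p = 0.0505). The part of these markers in the Aqp3 values was not tested. Of the other aquaporins, Aqp11, an intracellular water channel, ranged from 2.79 to 10.8 CPM over the 12 libraries. Aqp9, which passes glycerol and urea, stayed at or below 1.59 CPM but for 7.27 in KO replicate 2 of 1 week, and Aqp7 and Aqp4 never passed 3 counts.

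ENaC is built of an alpha, a beta and a gamma subunit, encoded by Scnn1a, Scnn1b and Scnn1g. Scnn1g and Scnn1b are neighbours on chromosome 7, between 121734479 and 121918514, and Scnn1a lies on chromosome 6. At 1 week Scnn1b stood at 24.5, 26.9 and 30.7 CPM in WT and 13.8, 8.04 and 2.45 in KO (log2 fold change -1.75, SE 0.56, edgeR adjusted p = 0.217). Scnn1g stood at 33.1, 28.9 and 39.1 CPM in WT and 17.5, 7.05 and 17.1 in KO (log2 fold change -1.28, SE 0.41, edgeR adjusted p = 0.214). For both subunits every KO library was below every WT library. Without KO replicate 3 the log2 fold changes of Scnn1b and Scnn1g were -1.39 and -1.52 (edgeR adjusted p = 0.0562 and 0.081). Scnn1a was far lower than its partners in WT, at 1.46, 2.68 and 2.28 CPM, and stood at 4.32, 3.42 and 0.204 in KO. At 1 month all 3 subunits overlapped between genotypes: Scnn1b at 14.3, 20.1 and 18.8 CPM in WT and 21.2, 15.9 and 7.73 in KO, Scnn1g at 16.1, 17.8 and 6.25 in WT and 11.7, 10.5 and 3.33 in KO. Within each batch of 1 month Scnn1g was lower in KO, by a log2 difference of -0.60 in batch 2 and -0.85 in batch 3. Scnn1b differed by 0.11 in batch 2 and -1.25 in batch 3.

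The leading calcium-activated potassium channel genes had lower means in KO at both times, without passing the test. Kcnma1 encodes the large-conductance channel that is opened by voltage and calcium and is best known from bladder smooth muscle. At 1 week it stood at 22, 19 and 22.8 CPM in WT and 7.28, 11.8 and 7.14 in KO, without overlap (log2 fold change -1.27, SE 0.34, edgeR adjusted p = 0.16). At 1 month it stood at 7.66, 5.93 and 18.8 CPM in WT and 3.69, 2.39 and 8.79 in KO (log2 fold change -1.12, SE 0.34, edgeR adjusted p = 0.0902). The groups overlapped at 1 month and the batch 3 library of each genotype was its highest; the log2 differences within batches were -1.10 and -1.07. None of the 7 smooth muscle markers passed at 1 week; 2 of them, Myh11 and Tagln, were higher in KO without overlap, and Des had a negative log2 fold change (-1.14). Their summed level was 139.1 to 323.1 CPM in WT and 386.7 to 1123 in KO, with Acta2 at 676.3 CPM in KO replicate 2 and Tagln at 510.7 in KO replicate 3. At 1 month the sums overlapped, at 181.1 to 1007 CPM in WT and 181.4 to 464.7 in KO, 2 of 7 log2 fold changes were positive, and 1 marker, Smtn, fell (log2 fold change -0.99, edgeR adjusted p = 0.0272). Their part in the Kcnma1 values was not tested.

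Kcnn4 encodes the intermediate-conductance calcium-activated potassium channel of epithelia and blood cells. At 1 week it was close to constant in WT, at 78.5, 80.1 and 79.5 CPM, and stood at 66.6, 42.5 and 59.7 in KO (log2 fold change -0.49, SE 0.28, edgeR adjusted p = 0.423). At 1 month the levels overlapped, at 148.7, 105.1 and 69.4 CPM in WT and 88.6, 93.6 and 57.1 in KO (log2 fold change -0.41, SE 0.21, edgeR adjusted p = 0.27).

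**Figure D3:**
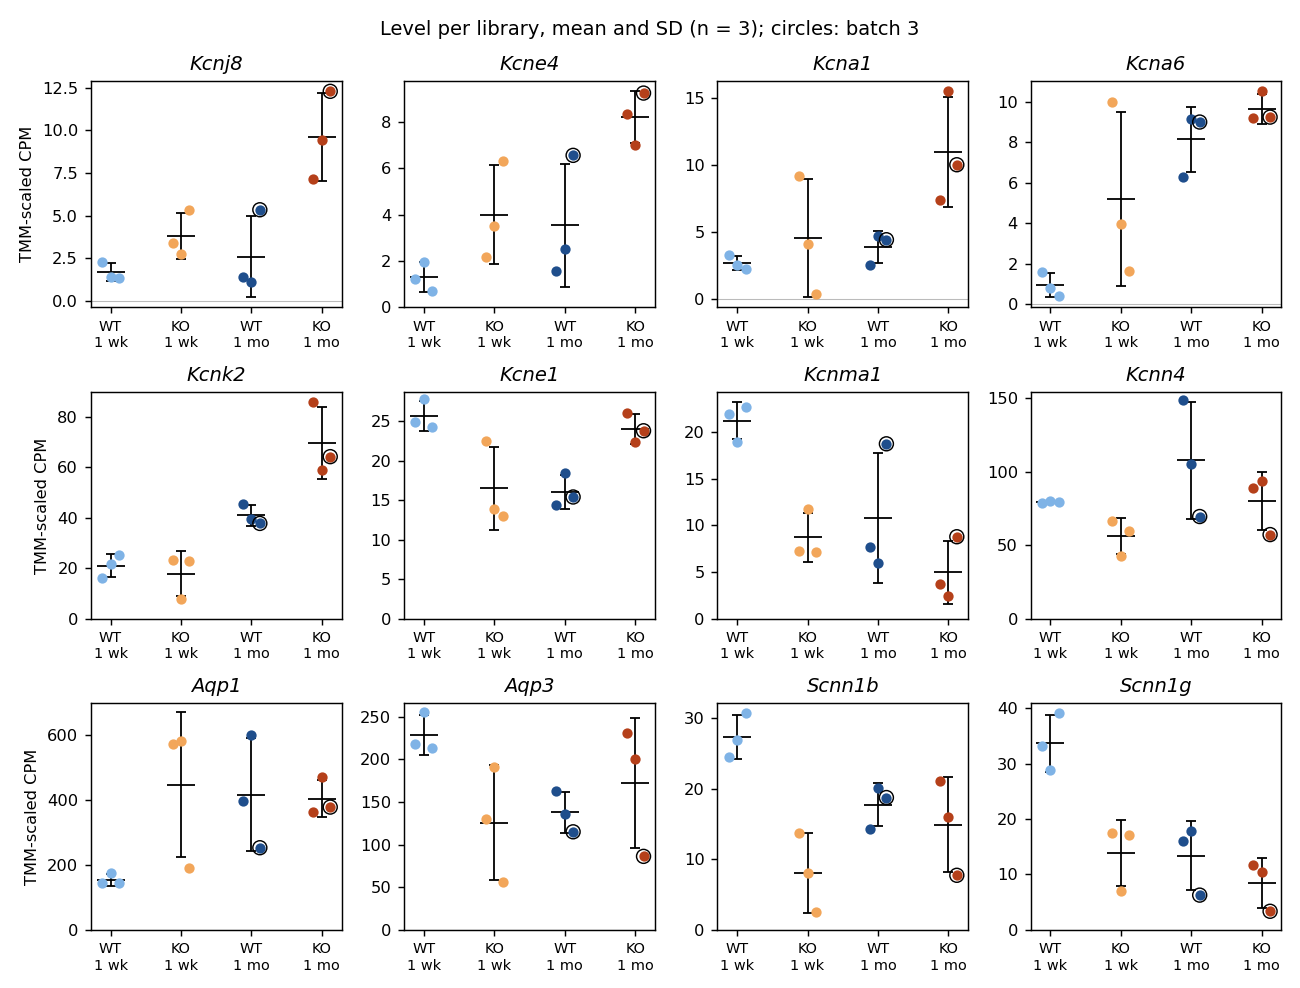
TMM-scaled CPM of 12 members in each library (points), with the mean and SD of each group (bars, n = 3) on linear axes, and circles around the batch 3 libraries of 1 month. Kcnj8 and Kcne4 lie higher in KO at both times, Kcnma1 lies lower in KO at 1 week and overlaps at 1 month, and Kcne1 changes sides between the times; of these, Kcnj8 at 1 month passed the test.

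Among the other voltage-gated genes, Kcns3, which encodes a silent subunit that modifies other potassium channels, stood at 1.58, 0.233 and 0.414 CPM in WT and 3.37, 2.87 and 14.7 in KO at 1 week. The counts were 13, 2 and 4 in WT and 25, 26 and 72 in KO. WT replicate 2 thus lay below the floor of 3 counts and WT replicate 3 just above it, so the size of the change is uncertain. The fitted change was 3.20 on the log2 scale (SE 0.95, edgeR adjusted p = 0.191), and 2.03 without KO replicate 3, the library that was highest. Its levels at 1 month overlapped, at 5.89, 8.62 and 1.68 CPM in WT and 3.2, 6.22 and 9.55 in KO. Kcnb2, a delayed rectifier, overlapped between genotypes at both times, with levels from 0.771 to 13.7 CPM.

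Of the voltage-gated sodium channel class, Scn7a encodes an atypical channel that senses extracellular sodium. At 1 week it stood at 23.6, 15.4 and 15.7 CPM in WT and 28.6, 21.7 and 76 in KO, with KO replicate 3 far above the rest. Its levels overlapped between genotypes at 1 week and at 1 month.

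No tested TRP gene separated the genotypes at either time. Trpm7, a channel fused to a kinase that carries magnesium, stood at 85.1, 81.5 and 150 CPM in WT and 130, 83.9 and 385 in KO at 1 week, where KO replicate 3 was again the extreme. Trpv4, a stretch and osmotic sensor of the urothelium, stood at 40.8, 53.9 and 38.3 CPM in WT and 36.1, 66 and 59.5 in KO at 1 week. The levels at 1 month were 45.2, 44.2 and 61.8 CPM in WT and 100, 59.5 and 62.9 in KO. Trpm4, a calcium-activated cation channel, ranged from 25 to 60.7 CPM over the 12 libraries, with overlap at both times. Trpv2 stayed at or below 2.9 CPM, Trpa1 and Trpm8, sensors of irritants and cold in nerve endings, at or below 1.08 and 0.359 CPM, and Trpv1 had no count. The tables hold the older symbols of Piezo1 and Piezo2, Fam38a and Fam38b, which fall outside the rule. Fam38a, the stretch-gated channel known from urothelium and endothelium, stood at 39.9 ± 2.39 CPM in WT and 62.2 ± 25.8 in KO at 1 week (SD, n = 3) and at 23.3 ± 8.50 and 38.8 ± 22.7 at 1 month. Fam38b stood at 4.49 to 8.98 CPM in WT and 24, 72.8 and 345.4 in KO at 1 week, but at 9.43, 15.8 and 9.31 CPM in WT and 8.36, 4.78 and 5.91 in KO at the later time. None of these 4 comparisons passed edgeR's test.

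Inward rectifiers other than Kcnj8 were led by Kcnj15, an epithelial potassium channel gene, at 33.9, 21 and 48.8 CPM in WT and 68.8, 16.8 and 26.7 in KO at 1 week and from 30.3 to 80.5 CPM in the libraries of 1 month. Kcnj16, which encodes its kidney partner subunit, stayed at or below 1.02 CPM. Kcnq1, a voltage-gated channel that pairs with Kcne1, ranged from 2.48 to 6.67 CPM. Kcnq1ot1, its antisense RNA, was the most abundant member, at 408, 374 and 732 CPM in WT and 750, 272 and 513 in KO at 1 week. The later levels were 777, 971 and 433 CPM in WT and 700, 825 and 398 in KO. The kit marks strand and the labels give the stranded setting of the counting, so these opposite-strand genes were counted apart.

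Of the 40 members tested at both times, 13 had a positive and 5 a negative log2 fold change at both, 14 were positive at 1 week and negative at 1 month, and 8 the reverse. The 45% with 1 sign compare with 41.1% of the 11919 genes tested at both times. In the fit over all 12 libraries no member of 51 had a genotype effect that passed for a difference between times, and of all 13122 genes 0% did. An unadjusted p under 0.05 was found for 7 members, against 19.9% of all genes, and DESeq2 called 0 members, against 6.99%.

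**Figure D4:**
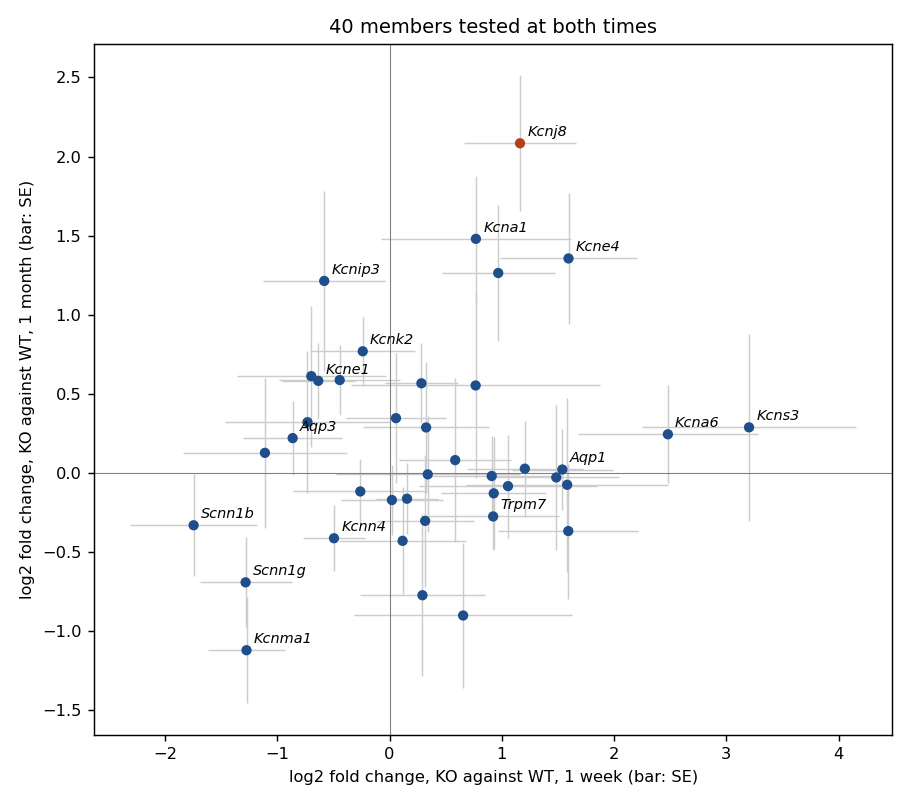
Log2 fold change of KO against WT at 1 week (horizontal axis) and 1 month (vertical axis) for the 40 members tested at both times, with standard errors as bars; the red point, Kcnj8, passed the test at 1 month. Kcnma1 sits lower left, Kcnj8 and Kcne4 upper right, and Aqp1, Kcna6 and Kcns3 far to the right near 0 on the vertical axis.

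Other genes of ion and water transport were taken from a list of 62: regulators of ENaC, the sodium pump and cotransporters, chloride channels, and calcium and sensory channels. At 1 week 55 were tested and none passed, 34 of them with a positive log2 fold change. At 1 month 50 were tested, 24 of them positive, none passed higher, and 1 passed lower: Cacna1d, an L-type calcium channel gene, at 14.9, 18.7 and 25.5 CPM in WT and 8.24, 8.13 and 7.73 in KO (log2 fold change -1.26, SE 0.28, edgeR adjusted p = 0.0367). Over all genes tested, 0.0627% passed at 1 week and 2.22% at 1 month, so the list's share at 1 month is close to that of all genes. The list's median log2 fold change was 0.16 at 1 week and -0.05 at 1 month.

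Luminal and basal keratin and uroplakin markers of the labelled tissue had counts in every library. The 8 luminal markers summed to 8916 to 11400 CPM in WT and 6872 to 11250 in KO at 1 week, and to 12940 to 26810 in WT and 8773 to 13230 in KO at 1 month, where 0 of 8 were positive and 1, Krt20, fell (log2 fold change -1.75, edgeR adjusted p = 0.006). Fibroblast markers summed to 3396 to 5556 CPM in WT and 4547 to 9950 in KO at 1 week, where the sums overlapped. At 1 month they summed to 9630 to 13350 CPM in WT and 7593 to 9332 in KO, with the sum lower in KO. None of these 6 markers passed or was without overlap at 1 month, and 2 had a positive log2 fold change (median -0.10). Col1a1, the highest of them, averaged 6218 CPM in WT and 3688 in KO at that time. Leukocyte markers summed to 135.3 to 224.5 CPM in WT and 243.3 to 468.7 in KO at 1 week, and to 491.6 to 1034 in WT and 208.6 to 311 in KO at 1 month, higher in KO and then lower. Cycling-cell markers summed to 14.1 to 15.3 CPM in WT and 93.7 to 586.3 in KO at 1 week, and overlapped at 1 month, at 9.15 to 50.9 in WT and 9.88 to 15.2 in KO. The nerve and glia markers summed to 747 to 1529 CPM in WT and 70.1 to 268.2 in KO at 1 week, and to 1131 to 2725 in WT and 154.6 to 753 in KO at 1 month. Most of that sum was Uchl1, a ubiquitin hydrolase, which fell at 1 month (log2 fold change -2.44, edgeR adjusted p = 0.0196). The nerve genes Snap25, Tubb3 and Elavl4 stayed at or below 1.63 CPM, while the glial gene S100b was higher in KO without overlap at 1 week, at 2.17 to 3.03 CPM in WT and 11.3 to 42 in KO (edgeR adjusted p = 0.0937). Of the listed red-cell haemoglobin genes only Hba-a1 and Hba-a2 had a matching symbol. Both were at 0 in all libraries, which does not show that red cells were absent. Striated muscle markers summed to at most 16.3 CPM. The part of these markers in the members' values was not tested.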

How the data were processed

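RNA was measured in 12 libraries of peeled urothelium, prepared with a stranded 3′ kit (QuantSeq, forward), per the labels' protocols. The deposited values are raw counts per gene in 1 table for each time. The submitters' processing notes name Bowtie, TopHat, HTSeq, DESeq2 and mm10; versions and the annotation are not given in the sources used here. The members, gene lists and tests were chosen with earlier results of these data known. Coordinates are from GENCODE M21 and promoters from RefSeq, both GRCm38; 145 of 145 symbols matched, 1 by a synonym, and 112 had a promoter.

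Genotypes were compared with edgeR's quasi-likelihood test (4.0.16, R 4.3.3, robust, TMM scaling, filterByExpr), with p-values two-sided and adjusted by Benjamini and Hochberg over every gene in the fit, called under 0.05. The times were fitted apart, with batch as a covariate at 1 month, and the difference between times was an interaction over 12 libraries. DESeq2 (1.42.0), other scalings and filters, no batch covariate, batch 2 alone and leaving out each library were alternatives. The overlap counts without KO replicate 3 were added after the data were seen. Replicates were numbered in accession order; the title and library name of WT replicate 3 at 1 month carry different identifiers, and its column was matched by the library name. The labels do not describe how the replicates were raised, so p-values measure the spread between the 3 samples of a group, which may be technical in part. An exact permutation test of 3 against 3 cannot go below 0.1.

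In counts simulated with 200 genes changed 4-fold, the test recovered 19% at 1 week (12501 genes), 90% at 1 month (12012 genes) and 14% in the interaction (12978 genes). Unchanged genes gave 2, 16 and 2 false calls in the same order. No batch effect was simulated. Members named with values were those past the threshold, up to 6 at each time with the smallest p among members without overlap, up to 3 in each class with the highest mean of at least 5 CPM, the 3 with the largest change of 1 sign, and genes known from bladder or epithelial transport; 37 resulted. Among members, log2 fold changes are given for the 14 of these that did not overlap between genotypes at a time. A non-overlapping member means that every KO library lay on 1 side of every WT library in CPM, counted among the members tested at that time. Values of some members are not reported here.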

Additional observations from a re-analysis of the deposited data

Results flagged for a closer look

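Kcne1 was lower in every KO library than in every WT library at 1 week and higher in every KO library at 1 month. The fitted changes thus had opposite signs, but neither passed edgeR's test (adjusted p = 0.396 at 1 week and 0.187 at 1 month). The difference between them was 1.24 on the log2 scale. edgeR's interaction test gave an adjusted p of 0.151, which did not pass. Time cannot be told apart from batch. The sex-linked transcripts of KO also differed between the times, with Xist in every KO library at 1 week and in replicate 3 alone at 1 month.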

How the results depend on the processing

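No paired analysis was possible because the replicate numbers were given in accession order and pair no animals. The count of members called at 1 week, 0, became 6 with DESeq2 and ranged from 0 to 2 on leaving out a library, with 2 without KO replicate 3. At 1 month the count of 1 became 3 with library size alone, 5 with no filter on low counts and 3 with DESeq2. It became 0 without the batch covariate and 4 with batch 2 alone. On leaving out a library it ranged from 0 to 4: 0 without WT or KO replicate 1 or 2, and 4 without WT or KO replicate 3. With either replicate 3 of 1 month left out, the batch term takes up the other, so such fits rest on batch 2 at that time. The count in the difference between times, 0, ranged from 0 to 1: Kcnh1 without KO replicate 1 of 1 week and Aqp1 (log2 difference -1.86) without KO replicate 3 of 1 week.

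Over all genes the 8 called at 1 week became 62 with no filter and 957 with DESeq2, and ranged from 0 to 320 on leaving out a library. The 269 at 1 month became 561 with library size alone, 1276 with no filter, 781 with DESeq2, 0 without the batch covariate and 1474 with batch 2 alone, and ranged from 45 to 1522. The 0 in the interaction became 137 with no filter, 917 with DESeq2 and 15 with batch 2 alone, and ranged from 0 to 440. The cause of these moves was not tested.

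For the 14 members with a fold change, 593 of 640 recomputed values kept direction and call, 5 lost the call (all Kcnj8 at 1 month), 20 gained one and 22 changed sign. Leaving out a library gave log2 fold changes at 1 week from -0.21 to 1.23 for Kcna1 (negative without KO replicate 1) and from -0.52 to 0.095 for Kcnk2 (positive without KO replicate 2). At 1 month it gave -0.26 to 0.29 for Aqp1 (also -0.041 without the batch covariate and -0.250 with batch 2 alone), -0.65 to 0.92 for Kcns3 (-0.638 with batch 2 alone) and -0.60 to 0.11 for Scnn1b (0.114 with batch 2 alone). For the difference between times it gave -0.59 to 0.32 for Kcne4 (0.103 with library size alone and 0.320 with batch 2 alone), -0.00074 to 0.48 for Kcnma1 and -0.037 to 0.30 for Kcnn4. The cause was not tested. Depth limits members below about 1 CPM, where a library holds a handful of counts.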
